A study of Mus musculus with 12 samples.

Results

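The granins and the proteins that process granule cargo were followed as 10 genes: Chga, Chgb, Scg2, Scg3, Vgf, Scg5, Pcsk1, Pcsk1n, Cpe and Pam. They were taken by gene name, as a set drawn up with earlier results of these data known, from the 24318 gene rows that each of the 2 deposited expression tables holds. All 10 had a row, and 9 of the 10 reached the mean of 1 FPKM asked of a gene before it was tested (FPKM, the number of sequenced fragments relative to transcript length and library size). The cells were N2a, a mouse neuroblastoma line, in 3 groups of 4 RNA-seq libraries: SE-BDEV, CON-BDEV and Vehicle. BDEV stands for brain-derived extracellular vesicles, small membrane-bound particles released by cells, and all groups shared the cell line and were given either vesicles or vehicle. The title of the series ties SE to status epilepticus, a prolonged seizure, and asks whether it alters what brain vesicles do; CON is not spelled out in the labels. The sources used here do not state dose, time of exposure, vesicle preparation or the number of separate cultures. All p-values therefore speak of how far these libraries spread, and that spread could be technical. N2a is a tumour line grown in culture and not a mature neuron.

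Neuroendocrine cells and neurons keep peptide hormones and amines in dense-core granules, which bud from the trans-Golgi network and release their content when calcium rises. Granins are acidic secretory proteins that aggregate with calcium at low pH, help to form the granule core and are themselves cut into bioactive peptides. Prohormone convertases cut the precursors at pairs of basic residues, carboxypeptidase E trims the exposed basic residues, and the amidating enzyme encoded by Pam finishes many peptides. In sympathetic and adrenal chromaffin cells, from whose lineage neuroblastomas arise, chromogranin A is a classical marker of the neuroendocrine state.

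The main result was a split within the granin family. Chga and Chgb, the chromogranins, were higher in all 8 BDEV libraries than in all 4 Vehicle libraries, by 12.1 to 19.2% of the Vehicle mean, while Scg2 was lower in all 8, with mean changes of -8.69 and -9.09%. Over the 11312 genes tested in all 12 libraries, 2.52% lay above Vehicle in this way and 2.67% below it. Chga passed the test in both groups. Chgb and Scg2 passed it in CON-BDEV and not in SE-BDEV, and no other member passed it in either. The fall of Scg2 was less firm than the rises: its CON-BDEV call was kept in 2 of the 8 fits that each left out a library. Those of Chga and Chgb in CON-BDEV were kept in all 8. The Scg2 call was also lost in the fit of all 12 libraries (limma adjusted p 0.0646) and with no variance trend (limma adjusted p 0.0790). The SE-BDEV call of Chga was lost when any Vehicle library was left out. SE-BDEV and CON-BDEV cells were not told apart in any member.

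Several granin genes are known targets of CREB, which binds the cAMP response element. The proximal promoters of the genes the results turn on are therefore shown, as the 150 bases before the start of transcription on the sense strand, together with that of Pcsk1, whose messenger RNA was near 0 here. Sequences and starts are RefSeq's on GRCm38.p6, and capitals mark the element TGACGTCA, or TGACG where it is not followed by TCA.
Chga, chr12:102554791-102554940, plus strand: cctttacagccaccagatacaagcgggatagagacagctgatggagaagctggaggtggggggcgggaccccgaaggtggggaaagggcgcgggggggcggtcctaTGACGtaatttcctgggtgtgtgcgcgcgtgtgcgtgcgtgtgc
Chgb, chr2:132781492-132781641, plus strand: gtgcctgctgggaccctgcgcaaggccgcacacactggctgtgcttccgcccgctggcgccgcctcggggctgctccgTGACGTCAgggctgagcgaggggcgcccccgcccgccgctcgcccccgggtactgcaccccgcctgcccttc
Scg2, chr1:79440027-79440176, minus strand: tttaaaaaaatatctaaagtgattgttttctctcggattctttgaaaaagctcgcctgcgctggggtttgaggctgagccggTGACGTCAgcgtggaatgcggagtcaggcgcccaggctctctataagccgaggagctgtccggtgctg
Pcsk1, chr13:75089707-75089856, plus strand: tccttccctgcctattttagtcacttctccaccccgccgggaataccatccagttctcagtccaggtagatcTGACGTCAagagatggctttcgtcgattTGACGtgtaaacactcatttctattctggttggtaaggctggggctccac

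Chgb, Scg2 and Pcsk1 each held the full TGACGTCA, starting at position -72, -68 and -78 relative to the start. Chga held TGACG at -44 without the full palindrome. So did Scg3, at -30, and Scg5, at -175 and 20 with CGTCA at 41, neither of which passed the test, so that 6 of the 8 members with a window held these letters. RefSeq windows of 300 bases, 250 before to 50 after the start, were matched for 8 of the 10 members, and 9 windows were searched because Pam had a pair of starts; Vgf and Cpe were not in the table used. Over all 32817 such mouse windows, the palindrome TGACGTCA was found in 588, or 1.79%, and TGACG or its reverse complement CGTCA, which the palindrome also contains, in 6822, or 20.8%. The GC-box letters GGGCGG, or CCGCCC on the other strand, stood in 35.6% of windows and in those of Chga, Chgb, Scg5, Pam, Pcsk1 and Pcsk1n. TATAAA, or TTTATA on the other strand, stood in 13.6% of windows, and among the members only in that of Chga, 6 bases after the start. Scg2 and Chgb both held the full element, and its part in their changes was not tested. These are matches of letters and not measured binding.

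N2a cells expressed most of the set strongly. In Vehicle libraries Vgf averaged 239 ± 7.74 FPKM, Chgb 232 ± 1.33, Scg3 189 ± 2.36, Scg2 162 ± 1.74 and Chga 157 ± 4.66 FPKM (SD, n = 4 throughout). These ranked 328, 342, 417, 482 and 498 among all gene rows. Scg5 followed at 72.7 ± 1.74 FPKM, then Cpe at 60.6 ± 1.99, Pcsk1n at 20.4 ± 4.74 and Pam at 16.8 ± 0.873 FPKM. Neighbours in this order overlapped in their Vehicle ranges for Vgf and Chgb, for Scg2 and Chga and for Pcsk1n and Pam, and did not overlap for the others. FPKM is per length, so these levels can be set side by side. In bulk RNA a smaller share of expressing cells and less RNA per cell cannot be told apart.

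**Figure D1:**
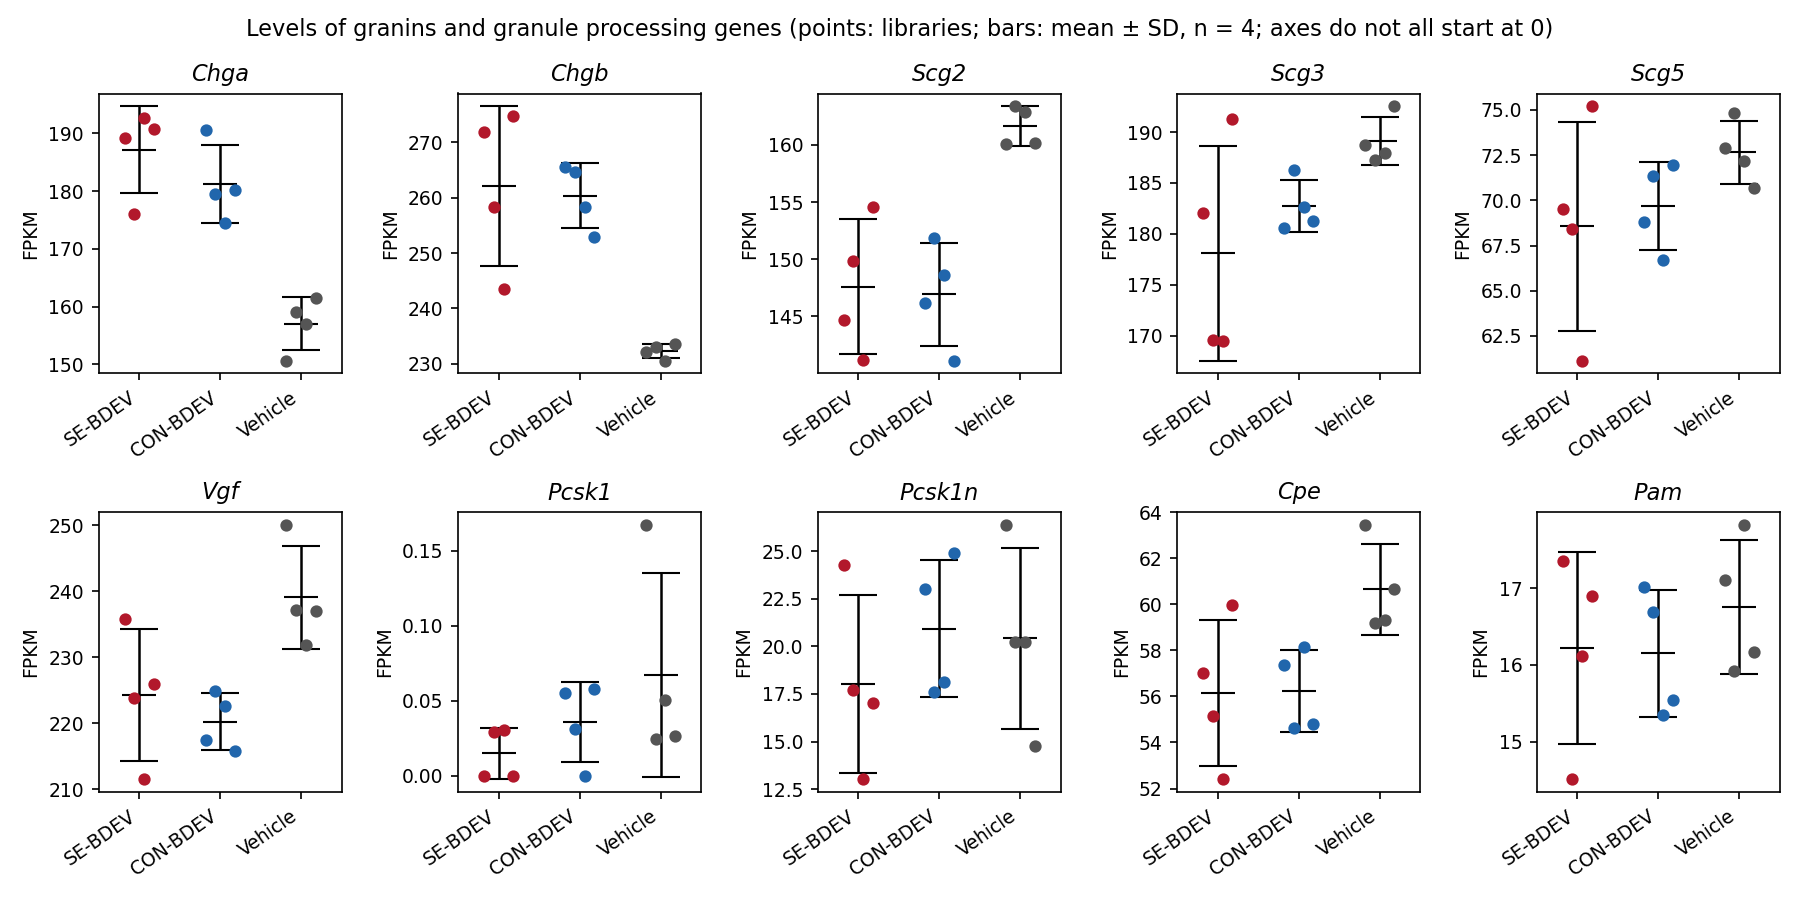
FPKM of the 10 members in each library (points) with the mean and SD of 4 libraries (bars), for SE-BDEV, CON-BDEV and Vehicle; each gene has its own axis, which need not start at 0. In the panels of Chga and Chgb every BDEV library lies above every Vehicle library, and in that of Scg2 every BDEV library lies below.

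Chga encodes chromogranin A, the founding granin and the precursor of vasostatin and catestatin (mm9, chromosome 12, 103793178 to 103803237, as the authors' table places it; the positions that follow are on the same build). It had 189, 176, 193 and 191 FPKM in SE-BDEV replicates 1 to 4, and 191, 179.5, 174 and 180.1 FPKM in CON-BDEV replicates 1 to 4, against 151, 159, 157 and 162 FPKM in Vehicle replicates 1 to 4. The lowest BDEV library lay above the highest Vehicle library, and the BDEV groups overlapped each other. The mean was 19.2% above that of Vehicle in SE-BDEV and 15.3% above it in CON-BDEV. On the log2(FPKM + 1) scale the difference was 0.25 ± 0.04 (standard error) for SE-BDEV against Vehicle, with a limma adjusted p of 0.0158, and 0.20 ± 0.03 for CON-BDEV against Vehicle, with a limma adjusted p of 0.00876. Chga rose in both comparisons, which share their 4 Vehicle libraries. The SE-BDEV call rested on having all Vehicle libraries: without Vehicle replicate 1, 2, 3 or 4 the limma adjusted p was 0.0764, 0.0595, 0.0703 and 0.0563. In the authors' deposited table Chga had a log2 change of 0.25 with a q-value of 0.0215 for SE-BDEV and of 0.21 with a q-value of 0.0672 for CON-BDEV, and it was the only member that table marks as significant, in the first comparison.

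Chgb encodes chromogranin B, the more abundant chromogranin here (chromosome 2, 132607013 to 132620808). It had 272, 258, 243 and 275 FPKM in SE-BDEV replicates 1 to 4, and 265, 265, 258 and 253 FPKM in CON-BDEV replicates, against 232, 233, 231 and 234 FPKM in Vehicle replicates. The Vehicle libraries lay close together and below every BDEV library, and SE-BDEV had the widest spread of the 3 groups. The mean was 12.8% above Vehicle in SE-BDEV and 12.1% above it in CON-BDEV. The log2 difference was 0.16 ± 0.02 for CON-BDEV against Vehicle, a rise with a limma adjusted p of 0.00569. For SE-BDEV against Vehicle it was 0.17 ± 0.04 with a limma adjusted p of 0.0732, which did not pass. It did pass without SE-BDEV replicate 2 (limma adjusted p 0.0474) or replicate 3 (limma adjusted p 0.0439), and in the fit of all 12 libraries (limma adjusted p 0.0299). In the authors' deposited table the q-values were 0.304 for SE-BDEV and 0.225 for CON-BDEV.

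Scg2 encodes secretogranin II, the precursor of the peptide secretoneurin (chromosome 1, 79431243 to 79436665). Its level was 145, 149.9, 141 and 155 FPKM in SE-BDEV replicates 1 to 4, and 146, 152, 149 and 141 FPKM in CON-BDEV replicates, against 160.1, 163, 163 and 160.2 FPKM in Vehicle replicates. All 8 BDEV libraries lay below all 4 Vehicle libraries. The mean was lower than that of Vehicle, with changes of -8.69% in SE-BDEV and -9.09% in CON-BDEV. For CON-BDEV the log2 difference was -0.14 ± 0.03, a fall with a limma adjusted p of 0.0264. For SE-BDEV it was -0.13 ± 0.03 with a limma adjusted p of 0.106, which did not pass. The CON-BDEV call was kept in 2 of the 8 fits that each left out 1 library; the limma adjusted p reached 0.0874 among them, and it was lost without any 1 of the 4 Vehicle libraries and without CON-BDEV replicate 3 or 4. It was also lost in the fit of all 12 libraries (limma adjusted p 0.0646) and with no variance trend (limma adjusted p 0.0790). In the authors' deposited table the q-values of Scg2 were 0.602 for SE-BDEV and 0.360 for CON-BDEV.

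Vgf encodes a granin-like precursor, inducible by neurotrophins, that yields several neuropeptides (chromosome 5, 137506164 to 137509221). Its libraries read 236, 224, 212 and 226 FPKM in SE-BDEV and 217, 225, 223 and 216 FPKM in CON-BDEV, against 250.05, 237, 232 and 237 FPKM in Vehicle. Every CON-BDEV library was below every Vehicle library, whereas SE-BDEV replicate 1 lay within the Vehicle range. The log2 difference was -0.09 ± 0.04 for SE-BDEV (limma adjusted p 0.300) and -0.12 ± 0.03 for CON-BDEV (limma adjusted p 0.0577), so neither passed. Without CON-BDEV replicate 2 the CON-BDEV comparison gave a limma adjusted p of 0.0473.

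Scg3 encodes secretogranin III, which binds chromogranin A and cholesterol-rich granule membrane (chromosome 9, 75491172 to 75531863). It had 182, 169.6, 169.5 and 191 FPKM in SE-BDEV replicates 1 to 4 and 181, 186, 183 and 181 FPKM in CON-BDEV replicates, against 189, 187, 188 and 193 FPKM in Vehicle replicates. The CON-BDEV libraries sat just under the Vehicle range and 3 of the 4 SE-BDEV libraries lay below it, with replicate 4 inside it. The log2 differences of -0.09 ± 0.04 for SE-BDEV (limma adjusted p 0.351) and -0.05 ± 0.02 for CON-BDEV (limma adjusted p 0.271) did not pass. Scg3 was thus not among the members that rose, although its protein binds that of Chga.

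Scg5 encodes the granin-like protein 7B2, the chaperone of the convertase made from Pcsk2 (chromosome 2, 113616469 to 113669248). Levels were 69.5, 68.4, 61.1 and 75.2 FPKM in SE-BDEV and 68.8, 71.4, 66.7 and 72.0 FPKM in CON-BDEV, against 72.9, 74.8, 72.2 and 70.7 FPKM in Vehicle. The 3 groups overlapped. The log2 difference was -0.09 ± 0.05 for SE-BDEV (limma adjusted p 0.499) and -0.06 ± 0.03 for CON-BDEV (limma adjusted p 0.347), and neither passed. Pcsk2 itself averaged 0.774 ± 0.167 FPKM in SE-BDEV and 0.701 ± 0.166 in CON-BDEV, against 0.787 ± 0.0427 FPKM in Vehicle, below the level asked for a test, while its chaperone ranked 1239 among all gene rows in Vehicle.

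Pcsk1 was near 0 in all libraries. The gene encodes the prohormone convertase that opens most precursors in the early granule (chromosome 13, 75227434 to 75269946). It was listed at 0, 0.0289, 0.0306 and 0 FPKM in SE-BDEV and at 0.0550, 0.0309, 0 and 0.0576 FPKM in CON-BDEV, against 0.167, 0.0246, 0.0501 and 0.0264 FPKM in Vehicle. It ranked 13989 in Vehicle and was not tested. No fold change is given for levels of this size.

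Pcsk1n encodes proSAAS, the granin-like inhibitor of that convertase, and was read at a higher level than its target (chromosome X, 7496947 to 7505733). Libraries held 24.3, 17.7, 13.0 and 17.0 FPKM in SE-BDEV and 23.0, 17.6, 18.1 and 24.9 FPKM in CON-BDEV, against 26.4, 20.2, 20.2 and 14.8 FPKM in Vehicle. Libraries of 1 group differed more than the groups did. Its coefficient of variation was 25.9% in SE-BDEV and 17.2% in CON-BDEV, against 23.2% in Vehicle, while the other tested members had 0.573 to 8.43%. The limma adjusted p was 0.696 for SE-BDEV, with a 95% interval of the log2 difference from -0.58 to 0.23, and 0.900 for CON-BDEV, with -0.29 to 0.38. Eras overlaps Pcsk1n in the RefSeq annotation, and no source used here says whether reads were counted by strand, which leaves its values uncertain.

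Cpe encodes carboxypeptidase E, which also acts in sorting cargo to the regulated pathway (chromosome 8, 67071348 to 67171837). It had 57.0, 55.2, 52.4 and 60.0 FPKM in SE-BDEV and 57.4, 54.6, 58.1 and 54.8 FPKM in CON-BDEV, against 63.5, 59.2, 59.3 and 60.6 FPKM in Vehicle. CON-BDEV libraries lay below all Vehicle libraries, and SE-BDEV overlapped them through replicate 4. The log2 difference was -0.11 ± 0.04 for SE-BDEV (limma adjusted p 0.279) and -0.11 ± 0.03 for CON-BDEV (limma adjusted p 0.117), and neither passed.

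Pam, the amidating enzyme (chromosome 1, 99717670 to 99992209), was the lowest of the tested members. It had 17.4, 14.5, 16.1 and 16.9 FPKM in SE-BDEV and 17.0, 16.7, 15.4 and 15.5 FPKM in CON-BDEV, against 17.1, 15.9, 17.8 and 16.2 FPKM in Vehicle. The groups overlapped, with log2 differences of -0.05 ± 0.06 for SE-BDEV (limma adjusted p 0.766) and -0.05 ± 0.05 for CON-BDEV (limma adjusted p 0.609). RefSeq places 5 other genes across Pam, so its values carry the same uncertainty as those of Pcsk1n.

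**Figure D2:**
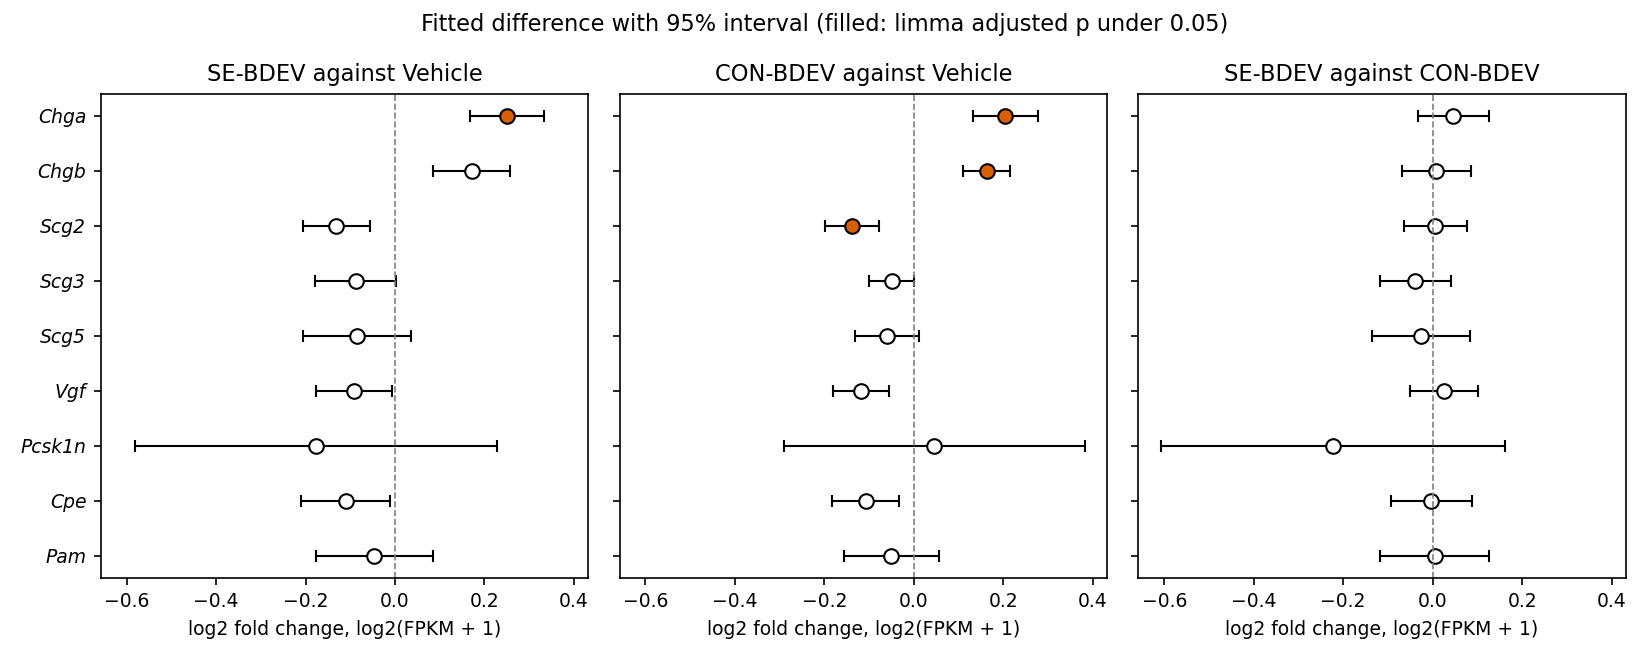
Log2 fold change on the log2(FPKM + 1) scale with its 95% interval for the 9 tested members in SE-BDEV against Vehicle, CON-BDEV against Vehicle and SE-BDEV against CON-BDEV; filled points had a limma adjusted p under 0.05. Chga and Chgb stand to the right of 0 in both comparisons with Vehicle, most other members stand to the left, and every interval of the third panel includes 0.

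Counted over the set, 1 member rose and 0 fell in SE-BDEV against Vehicle, where limma called 0.919% of the 11311 genes tested (0.292% rose and 0.628% fell). In CON-BDEV against Vehicle 2 members rose and 1 fell, against 2.84% of 11320 genes (1.02% rose and 1.82% fell). At an unadjusted p under 0.05 there were 5 members in each of these comparisons, against 14.8% of all genes in SE-BDEV and 19.1% in CON-BDEV. The median log2 difference of the 9 tested members was -0.09 in SE-BDEV and -0.05 in CON-BDEV, against 0.01 and 0.00 over all genes tested. By the plain criterion of groups that do not overlap, SE-BDEV was separated from Vehicle in 3 members (Chga and Chgb above, Scg2 below) and in 10.2% of all genes (5.77% above and 4.38% below). CON-BDEV was separated from Vehicle in 6 members (Chga and Chgb above; Scg2, Scg3, Vgf and Cpe below) and in 11.9% of all genes (5.67% above and 6.23% below).

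With all 8 BDEV libraries set against Vehicle in the fit of 12 libraries, 2 members rose and 1 fell, where 3.37% of 11312 genes were called (1.53% rose and 1.84% fell). At an unadjusted p under 0.05 there were 6 members and 18.8% of all genes. The log2 difference was 0.23 ± 0.03 for Chga (limma adjusted p 0.00187), 0.17 ± 0.03 for Chgb (limma adjusted p 0.0105) and -0.13 ± 0.03 for Scg2 (limma adjusted p 0.0225). Leaving out any 1 of the 12 libraries kept the calls of Chga and Chgb, and the call of Scg2 was lost without any 1 of the 4 Vehicle libraries. All BDEV libraries lay above Vehicle for 2 members and below it for 1, and 5.19% of all genes were separated in this way (2.52% above and 2.67% below).

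The direct comparison asked whether vesicles of the SE group acted differently on these genes from vesicles of the CON group. No member passed: limma called 0 of 9, of which 0 had an unadjusted p under 0.05, and 0% of 11312 genes, of which 296, or 2.62%, had an unadjusted p under 0.05. The 95% interval of the log2 difference, SE-BDEV over CON-BDEV, ran from -0.03 to 0.13 for Chga, from -0.07 to 0.09 for Chgb and from -0.06 to 0.08 for Scg2. For Pcsk1n it ran from -0.61 to 0.16, so a sizeable difference in that gene would not have been seen. The BDEV groups failed to overlap for 0 members and for 1.39% of all genes (0.76% with SE-BDEV above and 0.628% with SE-BDEV below). A p that misses the threshold does not show that the vesicles act alike.

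The opposite directions stood out most in ratios formed within a library, in which library scaling cancels. The ratio of Chga to Scg2 was 1.27 ± 0.0834 in SE-BDEV and 1.23 ± 0.0658 in CON-BDEV, against 0.972 ± 0.0280 in Vehicle. Chga thus exceeded Scg2 in each BDEV library, where the lowest ratio was 1.17, while in Vehicle the pair were near parity, with ratios of 0.941 to 1.01. The ratio of Chgb to Scg2 was 1.78 ± 0.0731 in SE-BDEV and 1.77 ± 0.0380 in CON-BDEV, against 1.44 ± 0.0200 in Vehicle. Likewise Chgb stood below Vgf in every Vehicle library, with ratios of 0.928 to 0.994, and above it in every BDEV library, with ratios of 1.15 to 1.22. The ratios of Chga to Chgb and of Scg2 to Vgf overlapped between groups, and Vgf itself did not pass in either comparison with Vehicle. Chga to Chgb was 0.716 ± 0.0508 in SE-BDEV and 0.696 ± 0.0223 in CON-BDEV, against 0.676 ± 0.0185 in Vehicle, and Scg2 to Vgf was 0.659 ± 0.0309 in SE-BDEV and 0.667 ± 0.00919 in CON-BDEV, against 0.677 ± 0.0267 in Vehicle. The summed level of the 10 members was 1158 ± 49.5 FPKM in SE-BDEV and 1154 ± 14.8 in CON-BDEV, against 1149.7 ± 8.98 FPKM in Vehicle. These ratios and sums describe pairs chosen with their values known and carry no test.

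**Figure D3:**
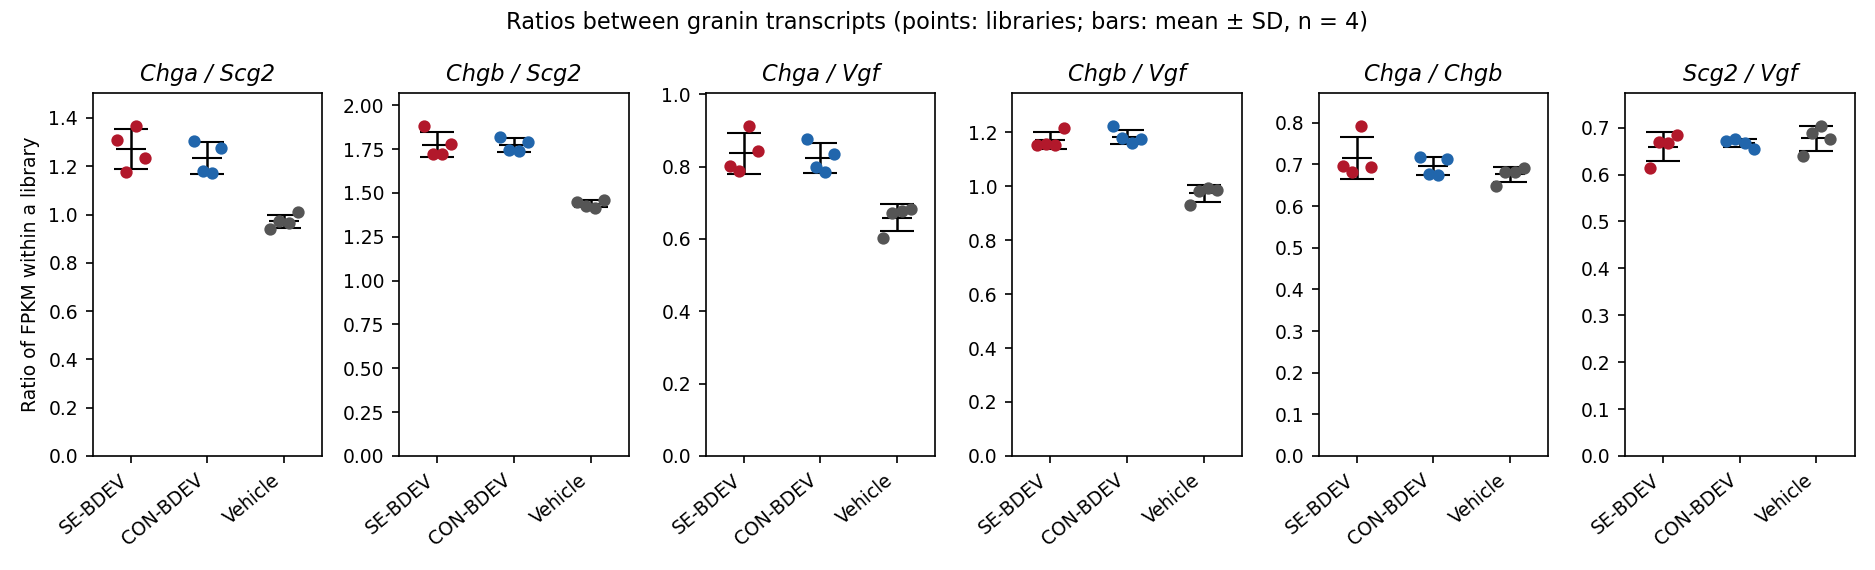
Ratio of FPKM between pairs of granin transcripts within each library (points) with the mean and SD of 4 libraries, for SE-BDEV, CON-BDEV and Vehicle, on axes that start at 0. The 4 ratios of a chromogranin to Scg2 or Vgf are higher in every BDEV library than in every Vehicle library, and the ratios of Chga to Chgb and of Scg2 to Vgf overlap between groups.

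In SE-BDEV the same libraries were lowest or highest for several members. SE-BDEV replicate 3, the shallowest of its group at an estimated 13000000 fragments, held the lowest SE-BDEV level of 7 of the 9 tested members (Chgb, Scg2, Scg3, Scg5, Vgf, Pcsk1n and Cpe) and the highest level of Chga. SE-BDEV replicate 4, the deepest at 15600000 fragments, held the highest level of 5 (Chgb, Scg2, Scg3, Scg5 and Cpe). The part of depth in these values was not tested. In CON-BDEV and Vehicle no library held the lowest or the highest level of more than 3 members. CON-BDEV replicate 2, the shallowest of all 12 libraries at 12800000 fragments, held the highest CON-BDEV level of 3 members and the lowest of 2. Such counts were not made over all genes.

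Likeness between genes was measured as the root mean square difference of their centred log2(FPKM + 1) values over the 12 libraries, where smaller is more alike. The genes most like Chga among the other 11311 were Ogdh (0.0376), Tgs1 (0.0389), Slco3a1 (0.0404), Tub (0.0453) and Calr (0.0474), against a median of 0.140 over all genes. Ogdh encodes a subunit of the 2-oxoglutarate dehydrogenase complex, Tgs1 an RNA cap methyltransferase, Slco3a1 an organic anion transporter, Tub the Tubby protein and Calr the chaperone calreticulin. Within the set Chga and Chgb differed by 0.0664, whereas Chga and Scg2 differed by 0.183. The closest pairs were Vgf and Cpe (0.0417), Scg3 and Cpe (0.0461) and Scg2 and Vgf (0.0485). Genes that vary little lie close to each other by this measure, so it describes size as much as pattern.

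Around these cargo genes, the machinery that builds and releases granules showed calls in CON-BDEV and with all BDEV together, all of them falls. Of 47 listed genes of granule biogenesis and exocytosis, 39 were tested. In SE-BDEV limma called 0, with 10 at an unadjusted p under 0.05, against 14.8% of all genes. In CON-BDEV 0 rose and 4 fell, against 1.02% and 1.82% of all genes, with 15 at an unadjusted p under 0.05, against 19.1% of all genes. Among those that fell were Hid1, which acts in granule maturation at the trans-Golgi network, Ptprn2, a phosphatase-like granule membrane protein, and Unc13a, a priming factor. Hid1 averaged 35.1 ± 4.70 FPKM in SE-BDEV and 34.7 ± 3.07 in CON-BDEV, against 41.5 ± 0.896 FPKM in Vehicle, a log2 difference of -0.26 in CON-BDEV (limma adjusted p 0.0323). Ptprn2 and Unc13a had log2 differences of -0.22 (limma adjusted p 0.0401) and -0.15 (limma adjusted p 0.0405) in CON-BDEV. These calls were fragile: with 1 of 8 libraries left out they were kept in 3 fits for Hid1, 1 for Unc13a and 0 for Ptprn2, and without any 1 of the Vehicle libraries all 3 were lost. With all BDEV libraries against Vehicle, Unc13a (-0.17, limma adjusted p 0.0363) and Ptprn2 (-0.17, limma adjusted p 0.0497) fell. With 1 of the 12 libraries left out these calls were kept in 4 fits for Unc13a and 2 for Ptprn2, and both were lost without any 1 of the Vehicle libraries and with no filter.

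Among the other genes of this list, Syt7 had the values 9.28 ± 0.208 FPKM in SE-BDEV and 9.28 ± 0.314 in CON-BDEV, against 8.49 ± 0.420 FPKM in Vehicle. Vti1a, with a log2 difference of 0.13 for all BDEV, and Syt5, with -0.21, did not pass either (limma adjusted p 0.220 and 0.111). The most abundant, Rab2a, Snap25 and Ica1, stood at 77.4 ± 1.11, 74.7 ± 0.821 and 64.0 ± 2.38 FPKM in Vehicle, with log2 differences of -0.01, -0.10 and -0.08. The median of the list for all BDEV was -0.01, against 0.01 over all genes. Below 1 FPKM were Cadps and Cadps2, priming factors of granule release, together with Unc13b, Syt9, Rab3b, Rab27b, Sytl4 and Sytl5.

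No enzyme that processes precursors passed the test, neither Cpe and Pam among the members nor any in a further list. Of 24 listed, 14 were tested, and limma called 0 in every comparison. Over all genes it called 0.919% in SE-BDEV, 2.84% in CON-BDEV and 3.37% for all BDEV. At an unadjusted p under 0.05 there were 1 in SE-BDEV and 2 in CON-BDEV, against 14.8% and 19.1% of all genes. The median log2 difference for all BDEV was -0.03. Mbtps1, Ctsl and Ctsb, a subtilisin-like convertase of the Golgi and a pair of cathepsins, were the most abundant at 60.3 ± 1.16, 49.0 ± 1.75 and 47.5 ± 1.78 FPKM in Vehicle, with log2 differences of -0.02, -0.03 and -0.05. The ends of the list were Pcsk7 at 0.11 and Cpm at 0.10, and Rnpep at -0.15 and Pcsk4 at -0.05, with limma adjusted p-values of 0.182, 0.670, 0.130 and 0.83. Besides Pcsk2, genes such as Pcsk5, Cpxm1, Cpxm2, Cpz, Qpct, Serpina3n, Ece1 and Mme were below 1 FPKM.

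Of 36 listed cargo genes, neuropeptides and amine handling, 22 were below 1 FPKM in the fit of 12 libraries, among them Gal, Vip, Sst, Penk, Tac1 and Nts. In SE-BDEV 1 of 15 tested rose and in CON-BDEV 1 of 14, against 0.292% and 1.02% of all genes. For all BDEV 2 of 14 rose and 1 fell, against 1.53% and 1.84% of all genes. At an unadjusted p under 0.05 there were 4 in SE-BDEV, 6 in CON-BDEV and 5 for all BDEV. Over all genes these shares were 14.8%, 19.1% and 18.8%. Dbh, the granule enzyme that turns dopamine into noradrenaline, rose in both comparisons. It had 6.82 ± 0.591 FPKM in SE-BDEV and 6.77 ± 0.652 in CON-BDEV, against 4.50 ± 0.424 FPKM in Vehicle, log2 differences of 0.51 (limma adjusted p 0.0158) and 0.50 (limma adjusted p 0.00684). As with Chga, the SE-BDEV call of Dbh was lost without any 1 of the Vehicle libraries, with a limma adjusted p of up to 0.0764. With all BDEV libraries together, Cartpt, the precursor of the CART peptides, also rose (12.5 ± 1.19 FPKM in SE-BDEV and 11.5 ± 1.12 in CON-BDEV, against 9.69 ± 0.689 FPKM in Vehicle; limma adjusted p 0.0374). Gnas, whose locus encodes a G protein subunit and the granin-like NESP protein, fell (868 ± 20.7 FPKM in SE-BDEV and 887 ± 12.2 in CON-BDEV, against 936 ± 8.27 FPKM in Vehicle; limma adjusted p 0.0353). The Gnas value is given per gene and does not separate these products. The call of Cartpt held in 4 and that of Gnas in 3 of 12 fits with 1 library left out, and none of these was a fit without a Vehicle library. In this list Plat (-0.22, limma adjusted p 0.0807), Npff (-0.15), Resp18 (0.06) and Nucb1 (-0.02) did not pass for all BDEV.

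Transcription and splicing factors linked to granin genes or to the neuroendocrine state gave 0 limma calls in SE-BDEV and 4 rises in CON-BDEV among 20 tested of 22 listed, with 6 at an unadjusted p under 0.05 in each. Over all genes 1.02% rose in CON-BDEV, and 14.8% in SE-BDEV and 19.1% in CON-BDEV had an unadjusted p under 0.05. Insm1, a zinc-finger factor of neuroendocrine cells, had 22.0 ± 5.37 FPKM in SE-BDEV and 22.2 ± 1.22 in CON-BDEV, against 17.7 ± 0.799 FPKM in Vehicle (log2 difference 0.31 in CON-BDEV, limma adjusted p 0.00660). Its spread in SE-BDEV was several times that in the other groups, and in the fit of 12 libraries the CON-BDEV call was lost (limma adjusted p 0.214). Phox2a, Gata3 and Hand2, factors of the noradrenergic lineage, rose in CON-BDEV by log2 differences of 0.25, 0.37 and 0.24 (limma adjusted p 0.00660, 0.0122 and 0.0135). In SE-BDEV the same genes had 0.17, 0.25 and 0.16 without passing, and none differed between SE-BDEV and CON-BDEV. With all BDEV libraries together these 3 rose and Celf4, an RNA-binding protein of neurons, fell (-0.16, limma adjusted p 0.0356); without Vehicle replicate 1 Gata3 and Hand2 were no longer called, nor was Gata3 without Vehicle replicate 2 or 4, and Celf4 was lost without any 1 of the Vehicle libraries. Ptbp1, Hdac2 and Sin3a had log2 differences of 0.01, -0.02 and -0.05. Rest, the repressor of granin genes in other cells, was at 8.49 ± 0.554 FPKM in SE-BDEV and 8.33 ± 0.559 in CON-BDEV, against 7.85 ± 0.492 FPKM in Vehicle (limma adjusted p for all BDEV 0.380). Creb1 was at 10.8 ± 0.532 FPKM in SE-BDEV and 10.9 ± 0.323 in CON-BDEV, against 10.4 ± 0.202 FPKM in Vehicle. Rest, Creb1 and Pcsk2 were picked after their values were seen. The median of the list for all BDEV was 0.07, against 0.01 over all genes.

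**Figure D4:**
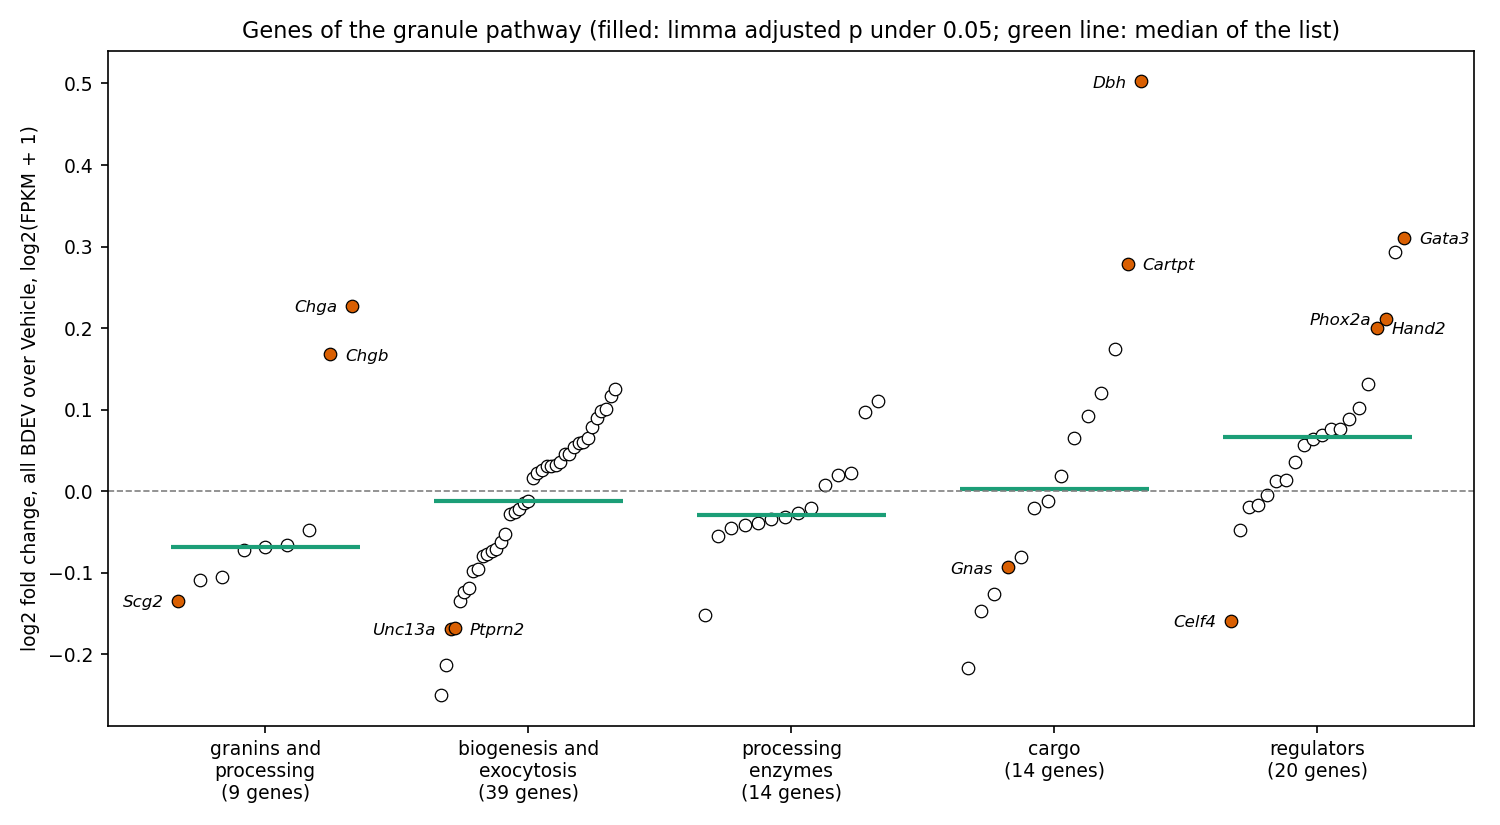
Log2 fold change of all BDEV libraries over Vehicle on the log2(FPKM + 1) scale for each tested gene of the set and of the 4 pathway lists, in rank order within a list, with the median of the list as a line; filled points had a limma adjusted p under 0.05. Most genes lie between -0.2 and 0.2, Dbh lies highest at 0.50, and the called genes of biogenesis and exocytosis lie below 0.

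Markers of the noradrenergic state were summed beside Chga and Chgb. All 8 markers of noradrenergic neuroblastoma (among them Phox2a, Hand2, Gata2, Gata3, Isl1, Th and Dbh, of which 4 also stand in the list of regulators or cargo as called genes) were above 1 FPKM, and their summed level was 425 to 452 FPKM in SE-BDEV and 434 to 464 in CON-BDEV, against 377 to 401 FPKM in Vehicle. For all BDEV 4 of these 8 rose and 0 fell, against 1.53% and 1.84% of all genes. In SE-BDEV 1 of the 8, Dbh, rose, and in CON-BDEV 4 rose, against 0.292% and 1.02% of all genes. Isl1 did not share the direction, at 23.7 FPKM in SE-BDEV and 24.4 FPKM in CON-BDEV, against 24.7 FPKM in Vehicle. Their part in the result was not tested. Markers of other brain cell types were low. Of 6 astrocyte and 6 microglia markers 0 reached 1 FPKM in any group, and their sums were at most 0.168 and 0.311 FPKM, with C1qb at 0 in all libraries. Of 6 oligodendrocyte markers 2 were above 1 FPKM, with sums of 5.88 to 6.51 FPKM in SE-BDEV and 5.84 to 6.84 in CON-BDEV, against 5.86 to 6.07 FPKM in Vehicle. The 6 forebrain neuron markers, 2 of them above 1 FPKM and Neurod6 at 0, summed to 9.43 to 11.7 FPKM in SE-BDEV and 9.34 to 10.6 in CON-BDEV, against 10.1 to 10.9 FPKM in Vehicle. The 5 endothelial markers, 1 of them above 1 FPKM and Cldn5 and Slco1a4 at 0, summed to 1.84 to 2.91 FPKM in SE-BDEV and 2.16 to 2.49 in CON-BDEV, against 2.19 to 2.75 FPKM in Vehicle. Estimated depth was 13000000 to 15600000 fragments in SE-BDEV and 12800000 to 14400000 in CON-BDEV, against 15100000 to 16400000 in Vehicle. Apart from SE-BDEV replicate 4, all BDEV libraries had fewer estimated fragments than the shallowest Vehicle library, and the part of depth in the differences from Vehicle was not tested. The library names in the labels also number the BDEV libraries before the Vehicle libraries; no source used here says whether that marks an order of preparation.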

How the data were processed

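Polyadenylated RNA of 12 N2a libraries was sequenced from kits that keep the strand, per the labels' protocols. TopHat2 and Cuffdiff (no versions named) and the build mm9 are what the submitters' processing notes name for the FPKM values the authors deposited. Their deposited comparison tables also hold, per the file headers, for each gene a log2 fold change, a test statistic (a score), a q-value and the p-value behind it. The annotation, any read filter and whether counting used strand are not stated in the sources used here.

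The first FPKM table holds SE-BDEV and Vehicle, the second CON-BDEV and Vehicle. For each Vehicle column the median ratio between the tables, over genes above 1 FPKM, was at most 0.0335% away from 1. The tables were therefore treated as 1 scale. Deposited FPKM were put on the log2(FPKM + 1) scale and fitted by limma 3.58.1, run in R 4.3.3 (empirical Bayes with a variance trend, two-sided, Benjamini-Hochberg over all genes tested). A gene entered a fit if its libraries averaged 1 FPKM or more, and an adjusted p under 0.05 was called. Fold changes understate those of low genes. Each BDEV group was set against Vehicle over the 8 libraries of its table. The direct comparison, and all BDEV against Vehicle, used 12 libraries with the mean Vehicle value of both tables. Each fit was also run on simulated data with log2 changes larger than those of the called members, so that run does not speak to changes of their size. Depth was estimated from the smallest FPKM steps with GENCODE transcript lengths of a newer annotation, so it is approximate. Promoter sequences are RefSeq's (GRCm38.p6). Python 3.11.15 and matplotlib 3.10.9 made the figures.

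The members, gene lists and markers were chosen with earlier results of these data known. Named were all members, the list genes called in any comparison, the 2 largest rises and 2 largest falls and the 3 most abundant of each list, and the 5 genes most like Chga. Some listed genes are not reported here. A gene picked otherwise is marked in the text. Alternatives covered the pseudocount, the filter, scaling, the variance trend, the replicate block, the libraries in the fit and each library left out.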

Additional observations from a re-analysis of the deposited data

How the results depend on the processing

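The directions of the tested members against Vehicle held under every other pseudocount, filter, scaling, trend, block and set of libraries tried. Leaving out 1 library turned only differences that were never called. These were Pam in SE-BDEV against Vehicle (log2 difference -0.078 to 0.0033) and Pcsk1n in CON-BDEV against Vehicle (-0.092 to 0.17) and in all BDEV against Vehicle (-0.20 to 0.062). In SE-BDEV against CON-BDEV they were Chgb (-0.015 to 0.043), Cpe (-0.035 to 0.029), Pam (-0.027 to 0.053), Scg2 (-0.016 to 0.027) and Scg5 (-0.071 to 0.027). The cause was not tested.

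The number of members called in SE-BDEV against Vehicle, 1 as reported, was 0 with no filter (limma adjusted p of Chga 0.0607), 2, Chga and Chgb, in the fit of 12 libraries and 0 to 2 with 1 library left out. In CON-BDEV against Vehicle it was 3 as reported, 2 in the fit of 12 libraries and 2 with no variance trend, each without Scg2, and 2 to 4 with 1 library left out. All genes called numbered 104 in SE-BDEV against Vehicle, 0 with no filter, 171 in the fit of 12 libraries, and 5 to 315 with 1 library left out: 6, 5, 7 and 16 without Vehicle replicates 1 to 4, and 315 without SE-BDEV replicate 2. In CON-BDEV against Vehicle they numbered 321, 176 with no filter, 183 with no variance trend, 133 in the fit of 12 libraries, and 134 to 556 with 1 library left out, the most without CON-BDEV replicate 1. For all BDEV against Vehicle they numbered 381, 225 with no filter and 124 to 510 with 1 library left out. SE-BDEV against CON-BDEV gave 0 calls in every setting. Counts and many calls against Vehicle thus rest on having all 4 Vehicle libraries. The calls of Chga and Chgb in CON-BDEV and for all BDEV were kept with any 1 library left out. FPKM without read counts give no counting error for a library.

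Whether replicate numbers pair the samples could not be decided from 4 libraries per group. Deviations of same-numbered libraries correlated across genes with r of 0.196, 0.298, -0.0738 and -0.123 between SE-BDEV and CON-BDEV replicates 1 to 4. The range was -0.102 to 0.0357 between SE-BDEV and Vehicle and -0.0558 to 0.0197 between CON-BDEV and Vehicle. In these 3 pairings of groups 2, 0 and 0 of 4 libraries correlated best with their own number. With the replicate number as a block, limma called 0 members and 48 genes in SE-BDEV against Vehicle (adjusted p of Chga 0.0539), 1 member, Chgb, and 135 genes in CON-BDEV against Vehicle (Chga 0.0544, Scg2 0.0736), and 3 members and 256 genes for all BDEV against Vehicle.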
